A study of Sus scrofa with 24 samples.

Results

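Tissue from jejunal Peyer's patches, here called Peyer, was compared with liver, here called Liver, in the same 6 pigs. The comparison took in 12 of the study's 24 arrays, the 6 labelled Peyer and the 6 labelled Liver, joined by the animal numbers 68, 69, 70, 71, 73 and 75 in their titles. The other 12 arrays, 6 of spleen and 6 of jejunum without patches (here Spleen and Jejunum), entered the fit and are quoted only for orientation. The donors were crossbred pigs weaned at 28 days, given free access to feed and water, and killed at 10 weeks. The labels used here describe no treatment, genotype or sex, and each animal gave 1 sample of each tissue with no pooling named. This pair of tissues was taken up because its mean profiles had the lowest correlation of the 6 tissue pairs in earlier results from these data.

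The liver is mostly hepatocytes, which secrete the plasma proteins, make bile acids, dispose of nitrogen and foreign compounds, and release glucose. Kupffer cells, its resident macrophages, and a fenestrated endothelium line its sinusoids. A Peyer's patch is a cluster of lymphoid follicles within the intestinal wall, built of B cells, with germinal centres, T cell zones between the follicles, and a covering epithelium with M cells that take up particles from the lumen. A sample of a patch also carries villi, crypts and the muscle beneath them. Hepatocytes and enterocytes both descend from endoderm, both build lipoproteins, and share the circulation of bile acids between gut and liver. In whole tissue, more cells of a type and more RNA of a gene per cell cannot be told apart.

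A level here is the log2 signal of a probe minus the log2 of its array's 75th percentile, so it is read only against the same probe on other arrays. A difference is the mean level in Peyer minus that in Liver, and a difference of 1 is a 2-fold change. The 75th percentile itself lay between 423.8 and 525.7 signal units on the Liver arrays and between 876.7 and 2262 on the Peyer arrays. The value of 2262 was that of animal 69, and the next highest was 1546. The share of probes well above background ran from 60.39% to 67.65% over the Liver arrays and from 70.54% to 75.45% over the Peyer arrays. The Liver arrays lie on slides 1 to 3 and the Peyer arrays on slides 4 to 6, so slide set and tissue cannot be told apart. Slide 6, with animals 73 and 75, was scanned on another day.

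The Peyer array of animal 71 stood apart from the other 5. Its correlation with the Jejunum array of the same animal was 0.992, against 0.948 to 0.962 with the other Peyer arrays. The mean level of 20 B cell genes was -0.56 on it, against 1.68 to 1.85 on the other Peyer arrays, -2.12 to -1.71 over the Jejunum arrays and -2.81 to -2.28 over the Liver arrays. CXCL13, the chemokine that draws B cells into follicles, was at -0.06 on that array and between 5.10 and 5.69 on the other 5. The array held follicle genes above the Jejunum level of animal 71 for CR2 (-3.29 against -8.10) and MS4A1 (-1.19 against -5.30). What the sample of animal 71 contained was not tested. Values without that array are given where it changes a call and for some other genes and lists.

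Over 42650 tested probes the mean profiles of Peyer and Liver correlated at r = 0.776, with Liver and Spleen at 0.777 and Liver and Jejunum at 0.787. The order changed with the measure. By rank correlation Peyer and Liver were at 0.798 and Liver and Spleen lower, at 0.794. Over 31584 probes above background on all 24 arrays they were at 0.840 and 0.818. Peyer and Liver were thus the least alike pair by the first of these measures and not by the other 2. Arrays of the same animal correlated between 0.753 and 0.775 across the 2 tissues, and arrays of different animals between 0.733 and 0.781. Within Liver the correlations ran from 0.975 to 0.987, and within Peyer from 0.948 to 0.989, or from 0.968 without animal 71.

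Of 11038 genes tested, 4444 (40.3%) were called by limma, at a Benjamini-Hochberg adjusted p under 0.05 and a difference of at least 1 in size. These were 2118 genes higher in Peyer (19.2% of the genes tested) and 2326 lower (21.1%). With normexp background correction they were 1516 higher and 2591 lower. Median centring turned the majority, with 2468 higher and 2013 lower, as did quantile normalization, with 2389 higher and 1987 lower. The median difference over all genes was -0.04. A total of 5238 genes (47.45%) had levels that did not overlap between the 6 Peyer and the 6 Liver arrays, and 4190 of the called genes went the same way in each of the 6 animals. The largest differences lay on the liver side: 127 genes were lower in Peyer by at least 8, against 36 higher, and 45 were lower by at least 12, against 6 higher. With genes near absence set at their lower bound these were 122 against 30 and 34 against 2. More genes fell below detection on the Liver arrays, which were dimmer and had fewer probes well above background. The part of that in the next counts was not tested. A total of 267 genes were well above background on 6 Peyer arrays and on no Liver array, against 58 the other way round. For such genes the text gives a lower bound on the fold, taken from the dimmest probe signal still called well above background on those arrays. The bound is that of the probe reported for the gene, and another probe of the gene can give a smaller difference. It also rests on the background handling used here and need not hold under another. With normexp correction BHMT differed by -11.75 and SI by 7.45, against bounds of 13.82 and 9.36 on the log2 scale. Other differences rest in part on arrays near background. In Peyer 1 of 6 arrays was above background for FGG and KLB, 2 for CLDN1, 3 for IL2RA and S100A9, 4 for ORM1 and S100A8, and 5 for CYP2E1, AKR1D1, LIPC and FGL1. In Liver 4 of 6 were for GZMA, SLA-DOB, TLR10 and HNF4G and 3 for HDC. NCR1 was above background on 1 Peyer and 5 Liver arrays.

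**Figure D1:**
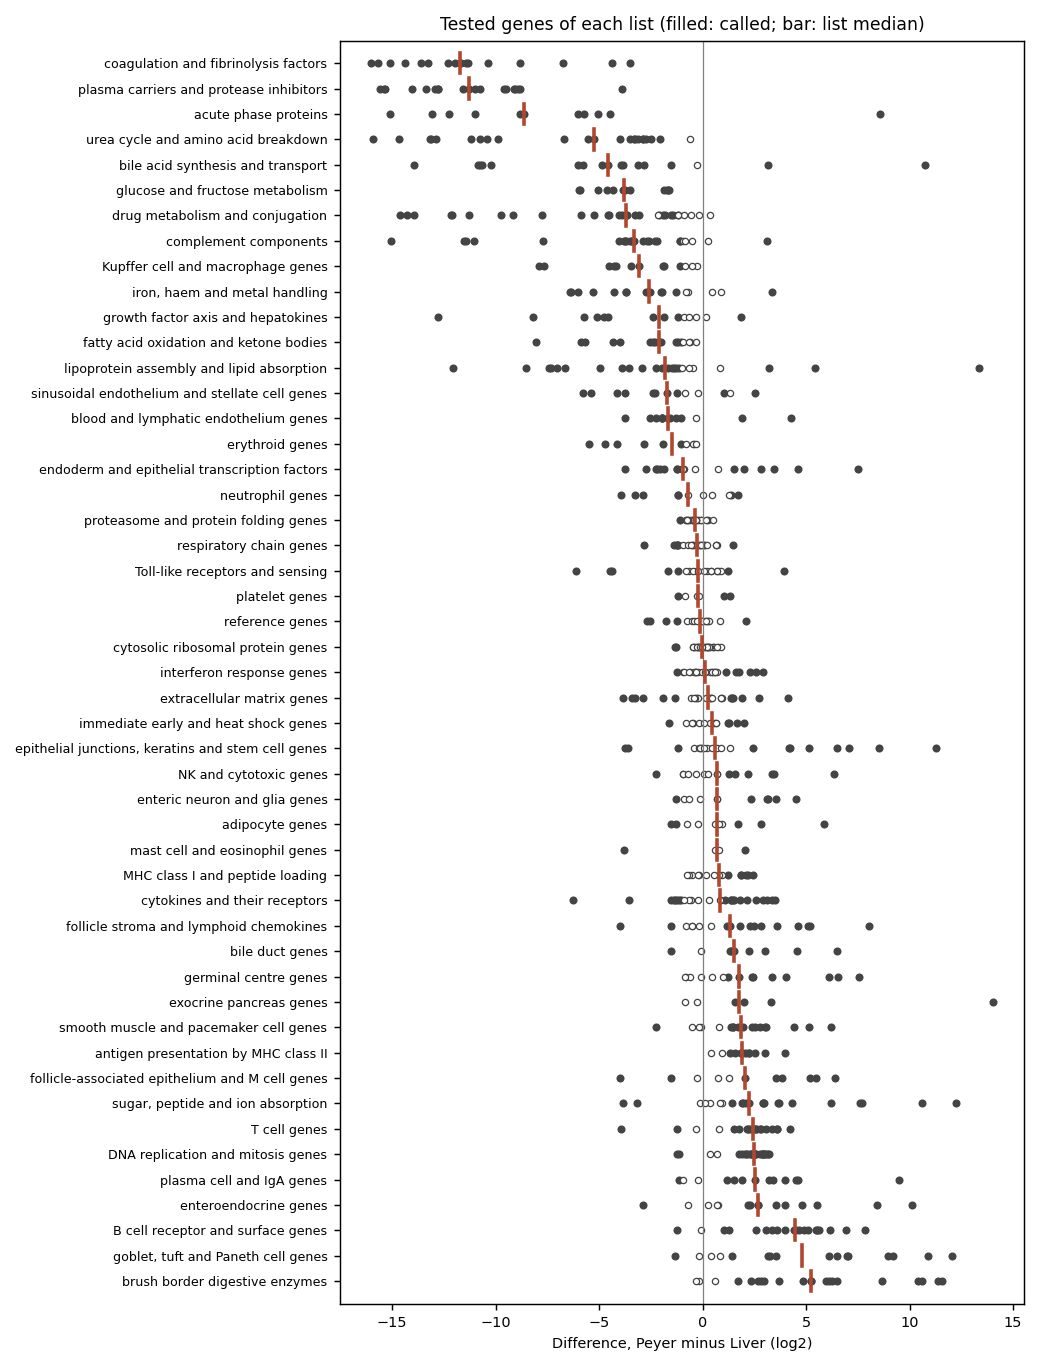
Difference of each tested gene between Peyer and Liver (mean log2 level in Peyer minus that in Liver, n = 6 arrays per tissue) for 49 gene lists, 1 row per list. Filled points are called genes, open points are not called, the bar is the list median, and lists run from a median of -11.73 at the top to 5.23 at the bottom.

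The tissue labels were set against markers of their defining cells. The 4 hepatocyte markers ALB, FGB, TTR and APOH differed by -12.07 to -15.38. The 5 enterocyte markers SI, LCT, ANPEP, FABP2 and SLC5A1, the B cell markers MS4A1, CD79B and CR2, and the T cell markers CD3E, CD3D and CD2 were higher in Peyer. Liver itself had B and T cell genes above background: MS4A1 was well above background on 5 of 6 Liver arrays and CD3E on 6. The Peyer samples held smooth muscle markers in unequal amounts, since DES ran from 3.39 to 7.42 over the Peyer arrays and from 2.35 to 3.10 over Liver.

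For 71 genes, different probes of 1 gene were called in opposite directions, and a gene is represented here by the probe with the highest mean level over all 24 arrays. That choice decided the direction for several genes named below, so the probes are shown for 3 of them. Each line gives the first 30 bases of a 60-base probe as the scanner files hold it, 5′ to 3′.

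APCS, probe 1: gcatgtgttgtgttcactaatggtcactca

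APCS, probe 2: agggggcacaagcgacacttacaagctact

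MUC13, probe 1: aatccgactagtgaaccatgaggttgcggg

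MUC13, probe 2: attacccttaaactgcttgcgacctggctt

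CHGA, probe 1: cgagcccgggccaccctgccacccccaccc

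CHGA, probe 2: cctttgggtgaaagctgagaactcctgact

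APCS, which encodes serum amyloid P component, a plasma pentraxin made by hepatocytes, was higher in Peyer by 8.58 (SE 0.60) by its probe 1 and lower by 13.36 (SE 0.71) by its probe 2. Probe 1 lay between 3.17 and 5.27 on the Peyer arrays and between -5.27 and -3.61 on Liver, where 4 of 6 arrays were above background. Probe 2 lay between 5.20 and 6.12 on Liver, and 1 of 6 Peyer arrays was above background. The 2 probes order the tissues in opposite ways on every array.

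MUC13, a cell-surface mucin of the intestinal epithelium, was lower in Peyer by 1.33 (SE 0.23) by probe 1, and higher by 4.11 to 4.56 by the other 4. Probe 1 was high in all 4 tissues, at means of 8.84 in Peyer, 10.17 in Liver, 9.73 in Spleen and 9.47 in Jejunum. Probe 2 was at 6.09, 1.98, -4.97 and 7.23 in the same order. CHGA, the granule protein of enteroendocrine cells, differed by -0.69 (SE 0.13) by probe 1, whose means lay between 5.54 and 6.23 in the 4 tissues. By probe 2 it was higher in Peyer by 10.32 (SE 0.52), and by probes 3 and 4 by 1.81 and 1.79. Of the 60 bases of CHGA probe 1, 73.3% were G or C, and of those of probe 2, 36.7%, against a median of 41.7% over the tested probes. The part of base composition in these differences was not tested.

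**Figure D2:**
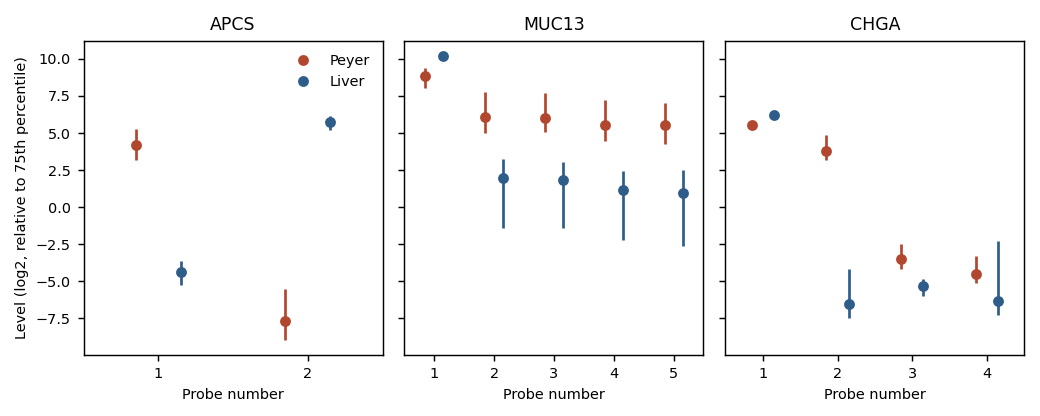
Levels (log2 signal relative to the 75th percentile of the array) of every tested probe of APCS, MUC13 and CHGA on the 6 Peyer and 6 Liver arrays. Points are tissue means and lines run from the lowest to the highest array. APCS probe 1 is higher in Peyer by 8.58 and probe 2 lower by 13.36, and the first probes of MUC13 and CHGA differ by -1.33 and -0.69 while their other probes are higher in Peyer.

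The same split applied to ACE and LTA. ACE, the brush border peptidase that also makes angiotensin II, differed by -0.32 (adjusted p = 0.23) by its most intense probe, in which 78.3% of the bases were G or C, and by 5.19 and 6.00 by its other 2 probes. LTA, a lymphotoxin of lymphocytes, differed by -0.19 by its first probe and by 6.56 by its second, which was above background on 6 Peyer and 0 Liver arrays.

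Plasma proteins made by hepatocytes gave the widest differences. All 17 tested coagulation and fibrinolysis factors were lower in Peyer, with a median difference of -11.73, or -11.59 with genes near absence set at their lower bound. The arrays did not overlap for any of the 17, and over all genes tested they did not overlap for 47.45%. FGB, the beta chain of fibrinogen, lay at a lowest, median and highest level of 7.30, 7.56 and 8.20 on the Liver arrays and at -8.53, -7.30 and -6.39 on Peyer, where 1 array was above background. Its difference was -15.10 (SE 0.66, adjusted p = 1.8e-15). FGG, the gamma chain, differed by -16.01. PLG, the zymogen of plasmin, was at 8.84, 8.97 and 9.25 in Liver. It was not well above background on any Peyer array by its reported probe, so it was at least 41200-fold lower by it. The 3 probes of PLG ran from -16.09 to -14.84. SERPIND1, heparin cofactor II, was at least 4810-fold lower, and PROC, the anticoagulant protein C, at least 3090-fold. SERPINC1 (antithrombin) and F2 (prothrombin) were above background on 12 of 12 arrays and differed by -11.73 and -11.44.

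The 19 carriers and protease inhibitors of plasma were also all lower in Peyer, with a median of -11.28 and no overlap for any of them. ALB, serum albumin, was at 9.71, 9.89 and 10.11 in Liver and at -4.75, -4.05 and -3.79 in Peyer, a difference of -14.06 (SE 0.58, adjusted p = 4.6e-16). All 21 probes of ALB were called, with differences from -11.72 to -16.05, so the size of a difference this wide depends on the probe. AMBP, the precursor of alpha-1-microglobulin and bikunin, differed by -15.58, TTR, the thyroxine and retinol carrier transthyretin, by -15.38, and GC, the vitamin D binding protein, by -15.33. For these genes 2, 3 and 4 of 6 Peyer arrays were above background. HPX (hemopexin), A1BG, ITIH2 and FETUIN, the last under the file's own name, were above background on all 12 arrays and differed by -12.79, -12.27, -11.58 and -13.35.

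Acute phase genes numbered 11 tested, of which 10 were lower in Peyer and 1, APCS by its first probe, was higher. The median was -8.61. ORM1, orosomucoid, differed by -15.10 by its reported probe and by -6.88 by another. LECT2, a chemotactic factor of hepatocytes, differed by -13.07 and FGL1, a fibrinogen-like protein, by -12.26. HAMP, the iron hormone hepcidin, varied among the livers from 1.31 to 6.80 with a median of 3.86, lay between -2.36 and -2.14 in Peyer, and differed by -6.03. The serum amyloid A genes were high in the liver of animal 75. SAA1 was at 8.81 there and SAA2 at 9.78, against Liver medians of 3.58 and 5.55. SAA3 was at 9.84 in that liver and between -1.36 and 3.31 in Peyer. All 3 were called, with differences of -5.74, -8.61 and -5.04. Without animal 75 they were called at -5.33, -7.93 and -4.74.

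Of 25 complement genes 20 were lower in Peyer, 1 was higher and 4 were not called, with a median of -3.32. C8A, of the membrane attack complex, was at least 11200-fold lower. The mannose-binding lectins, which start the lectin pathway, were far lower too: MBL2 differed by -11.53 (1 of 6 Peyer arrays above background), and MBL1 was at least 710-fold lower. MBL2 also varied among livers, from 1.81 to 5.68. CFD, factor D of the alternative pathway, went the other way. It was at 5.74, 5.99 and 6.35 in Peyer and at 2.47, 2.76 and 3.63 in Liver, a difference of 3.11 (SE 0.19, adjusted p = 5.8e-13).

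Genes of hepatocyte metabolism followed with smaller medians. Of 23 genes of the urea cycle and amino acid breakdown 22 were lower in Peyer, with a median of -5.26 (-4.54 with bounds). BHMT, which remethylates homocysteine with betaine, was at 7.15, 7.44 and 7.88 in Liver and at least 14500-fold lower in Peyer. UROC1, of histidine breakdown, differed by -13.18 with 2 of 6 Peyer arrays above background, and its 5 probes ran from -13.18 to -5.32. GULO, the last enzyme of vitamin C synthesis in pigs, was at least 2920-fold lower in Peyer.

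All 12 genes of glucose and fructose metabolism were lower in Peyer, with a median of -3.78. G6PC, the phosphatase that frees glucose, lay at 2.49, 3.29 and 4.25 in Liver and at -4.04, -2.91 and -0.67 in Peyer, with the highest Peyer value in animal 71. Its difference was -5.99, or -6.40 without that array. PFKFB1, which sets fructose 2,6-bisphosphate, differed by -5.91. PCK1, the entry enzyme of gluconeogenesis, was at 5.60, 6.28 and 7.75 in Liver and at 0.29, 1.1 and 3.57 in Peyer, a difference of -5.06. SLC2A2, the GLUT2 transporter of both hepatocytes and enterocytes, differed by -3.84.

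Of 17 genes of fatty acid oxidation and ketone bodies 13 were lower in Peyer and none higher, with a median of -2.09. CYP4A24, a fatty acid hydroxylase of pig, differed by -8.03 and ACSL1, an acyl-CoA synthetase, by -5.89. CPT1A, the carnitine transferase at the entry of mitochondria, lay between 1.24 and 2.21 in Peyer and between 1.11 and 3.67 in Liver and was not called (-0.30, adjusted p = 0.32).

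Drug metabolism gave 25 of 31 genes lower in Peyer and none higher, with a median of -3.71. ADH4, an alcohol dehydrogenase, was not above background on any Peyer array by its reported probe and was at least 7180-fold lower by it. Its other probe was above background on 5 Peyer arrays and differed by -3.81. CYP2E1, the ethanol-inducible cytochrome P450, differed by -14.29, and SULT2A1, which sulphates steroids and bile acids, by -12.10. The Peyer array of animal 71 had the highest mean level of this list in Peyer, 1.16 against -0.30 to 0.09 on the other 5.

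Among 14 genes of the growth hormone axis and hepatokines 9 were lower in Peyer and 1 higher, with a median of -2.13. AGT, angiotensinogen, differed by -8.19 and SERPINF1, pigment epithelium-derived factor, by -5.75. PRLR, the prolactin receptor, was higher in Peyer by 1.83 by its reported probe. Its 3 probes ran from 0.60 to 1.83, and 1 of them was called. Of 18 genes of iron, haem and metal handling 13 were lower and 1 higher, with a median of -2.60. HFE2, the hemojuvelin co-receptor upstream of hepcidin, differed by -6.40, MT1A, a metallothionein, by -6.34 and TFRC, the transferrin receptor, by -2.53. SLC39A4, the zinc importer of enterocytes, was higher in Peyer by 3.37.

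Bile acid genes were mostly lower in Peyer. Of 17 tested, 14 were lower in Peyer, 2 higher and 1 not called, with a median of -4.59. In synthesis, CYP7A1, the rate-limiting enzyme, was at 2.43, 3.14 and 4.04 in Liver. It was not above background on any Peyer array by its reported probe, so at least 712-fold lower by it, and its other probe differed by -9.13. AKR1D1, HSD3B7, CYP27A1 and CYP7B1, which modify the ring and side chain, differed by -10.65, -3.93, -6.01 and -5.78. SLC27A5, which activates bile acids for conjugation, differed by -10.21. In transport at the hepatocyte, SLC10A1, the sinusoidal uptake carrier NTCP, was at least 3930-fold lower. ABCB11, the canalicular export pump, was at least 1220-fold lower by its reported probe, and its other probe differed by -9.27. ABCC2 and ABCB4, canalicular pumps for conjugates and phospholipid, differed by -2.82 and -3.12.

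The genes that return bile acids from the gut did not move as 1 block. FABP6, the bile acid binding protein of enterocytes, lay at 2.51, 6.76 and 6.90 in Peyer and at -5.53, -4.64 and -4.35 in Liver, where 3 of 6 arrays were above background. It was higher in Peyer by 10.72 (SE 0.63, adjusted p = 4.5e-13), and by 11.39 without animal 71, which held the lowest Peyer value. Its mean in Jejunum was -0.82, below every Peyer array, while its mean in Spleen was 2.54. Which cells carried FABP6 was not tested. SLC51B, a subunit of the basolateral exporter, was at 4.48, 4.65 and 5.60 in Peyer and at 0.43, 1.63 and 2.75 in Liver and higher by 3.14. SLC10A2, the apical uptake carrier of the ileum, overlapped between the tissues (-0.25, adjusted p = 0.29). Of the regulators, NR1H4, the bile acid receptor FXR, differed by -4.59, NR0B2, the repressor it induces, by -1.53 with overlapping arrays, FGFR4, the hepatic receptor for the ileal hormone, by -3.83 and KLB, its co-receptor, by -4.84.

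Of 24 genes of lipoprotein assembly and lipid absorption 17 were lower in Peyer, 3 higher and 4 not called, with a median of -1.83. APOH, APOA2, APOA5 and APOM, apolipoproteins of liver, differed by -12.07, -8.53, -7.04 and -6.64, and APOC2 was at least 45.6-fold lower. APOC4, outside the list, was lower by 11.33. LIPC, hepatic lipase, differed by -7.43. Apolipoproteins that both tissues use were closer. APOA1 was at 9.68, 9.90 and 10.05 in Liver and at 7.96, 8.77 and 9.30 in Peyer, a difference of -1.13. It turned to 0.24 under quantile normalization and was -0.96 and not called without animal 69. The 4 probes of APOA1 ran from -1.13 to -0.62, and 1 of them was called. APOB differed by -1.98 (adjusted p = 0.0066), APOC3 by -3.54 and APOE by -3.91. MTTP, which loads lipid onto APOB, lay between 4.50 and 6.14 in Peyer and between 5.22 and 5.72 in Liver and was not called (-0.48, adjusted p = 0.23). FABP1, the fatty acid binding protein of liver and gut, was not called either (-0.67, adjusted p = 0.45).

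APOA4, an apolipoprotein of intestinal chylomicrons, was higher in Peyer. It lay at 7.02, 7.19 and 8.48 in Peyer and at 0.69, 1.98 and 4.12 in Liver, a difference of 5.42 (SE 1.0, adjusted p = 4.6e-05). FABP2, the intestinal fatty acid binding protein, was at least 2710-fold higher by its reported probe, and CD36, a fatty acid receptor, was higher by 3.21, with its 5 probes between 0.74 and 3.89. The last steps of triglyceride synthesis split. DGAT2 differed by -4.97, and DGAT1 by 0.83, which passed the adjusted p (0.0033) and missed the 2-fold limit. SAR1B, of chylomicron export, LPIN1, ABCG8, LCAT and ACAT2 were lower in Peyer by 1.29 to 2.95. SCARB1, the high-density lipoprotein receptor, missed the limit at -0.98 and was called without animal 75 (-1.02) or the Peyer array of animal 71 (-1.17). The Peyer array of animal 71 was the highest of the 6 Peyer arrays for APOA1, APOB, APOC3, MTTP, DGAT1 and APOA4.

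**Figure D3:**
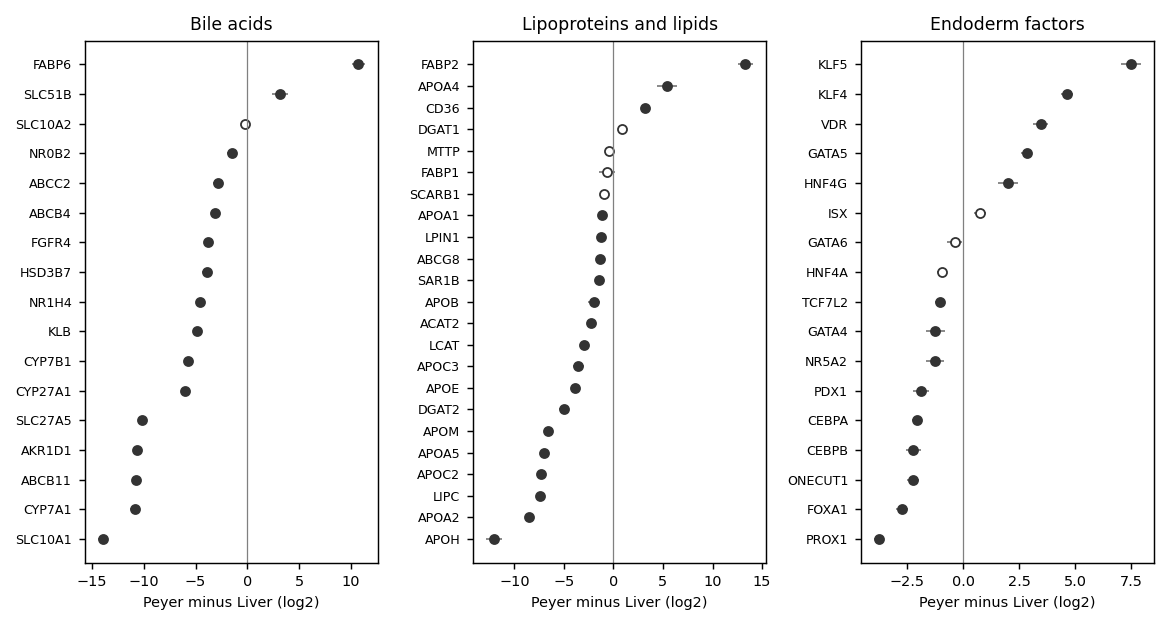
Differences between Peyer and Liver (log2, with the standard error of the fit, n = 6 arrays per tissue) for the genes named here of bile acid handling, lipoprotein assembly and lipid absorption, and endoderm transcription factors. Filled points are called. FABP6, FABP2 and KLF5 lie at the Peyer end of their panels, and SLC10A1, APOH and PROX1 at the Liver end.

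Transcription factors of endoderm went both ways. Of 19 tested, 9 were lower in Peyer, 6 higher and 4 not called, with a median of -0.95. HNF4A and GATA6, which act in liver and gut, differed by -0.95 and -0.38 by their reported probes and were not called. The 4 probes of HNF4A ran from -3.76 to -0.95, and 3 of them were called. Its reported probe passed the adjusted p (0.00063) and missed the 2-fold limit, which it passed without the Peyer array of animal 71 (-1.11) and without animal 75. PROX1 (-3.74), FOXA1 (-2.73), ONECUT1 (-2.24), CEBPB (-2.22), CEBPA (-2.04), NR5A2 (-1.26), GATA4 (-1.25) and TCF7L2 (-1.02) were lower in Peyer. Other probes of PROX1 and ONECUT1 reached -6.16 and -11.17, and that of GATA4 gave 0.44. The call of GATA4 was lost without animal 70 (-0.91), and that of TCF7L2 without any of animals 69, 70, 73 and 75 (-0.97 to -0.90). The Krüppel-like factors of intestinal epithelium were higher in Peyer, KLF5 by 7.49 and KLF4 by 4.63, although the 9 probes of KLF4 ran from -0.70 to 4.63. KLF5 was at 0.48, 0.73 and 2.17 in Peyer and above background on 1 of 6 Liver arrays. VDR, the vitamin D receptor, was at least 2.64-fold higher, GATA5 was higher by 2.83 and HNF4G by 2.0. ISX, an intestine-specific homeobox factor, was not called (0.75). PDX1 was lower by 1.87 by its reported probe and higher by 2.25 by its other probe.

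Enterocyte genes led the genes higher in Peyer. Of 21 tested brush border enzymes and partners 18 were higher and none lower, with a median of 5.23 (4.86 with bounds). In the authors' deposited normalized values, which are centred by slide set, the median of this list was -0.72. That of the absorption list, -0.78, also turned there. SI, sucrase-isomaltase, lay at 3.88, 4.10 and 5.59 in Peyer and was not above background on any Liver array, so it was at least 657-fold higher. The meprins MEP1B and MEP1A were at least 671-fold and 443-fold higher by their reported probes, and their other probes differed by 7.37 and 6.91. MME, neprilysin, was at least 537-fold higher by its reported probe, and its 3 probes ran from 8.82 to 10.38. LCT, lactase, was higher by 8.67 and ANPEP, aminopeptidase N, which bile canaliculi also carry, by 2.35. For SI, LCT and ANPEP the highest Peyer value was that of animal 71.

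Of 23 absorption genes 16 were higher in Peyer and 2 lower, with a median of 2.22 (2.11 with bounds). S100G, the calcium carrier calbindin D9k, was at 7.0, 7.65 and 8.14 in Peyer and at -5.07, -4.67 and -4.04 in Liver and differed by 12.24. Another of its probes gave 12.92, and the remaining one gave -0.45. SLC15A1, the peptide transporter PEPT1, was at least 415-fold higher, and SLC34A3, a sodium phosphate carrier, at least 1460-fold. SLC5A1, the sodium glucose carrier SGLT1, was at 5.07, 5.30 and 7.01 in Peyer and at -2.68, -1.88 and -1.70 in Liver and differed by 7.59. GUCA2A, guanylin, differed by 7.69. SLC46A1, the proton-coupled folate transporter, was lower in Peyer by 3.15, as was SLC2A2 above.

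Of 16 genes of goblet, tuft and Paneth cells 12 were higher in Peyer and 1, MUC13 by its first probe, lower, with a median of 4.82 (4.02 with bounds). REG4 was at least 1140-fold higher, CLCA1, a secreted product of goblet cells, differed by 10.90 with 1 of 6 Liver arrays above background, and SPINK4 by 9.22. The other probe of SPINK4 gave 0.69 and was not called. LYZ, lysozyme, was at 6.08, 7.0 and 7.38 in Peyer and at -0.86, -0.25 and 1.18 in Liver. DMBT1, a mucosal scavenger receptor, was higher by 7.0. Of 15 enteroendocrine genes 10 were higher and 1 lower, with a median of 2.68, or -0.35 in the authors' deposited values. SST, somatostatin, was at least 271-fold higher, GCG, proglucagon, at least 72.7-fold and NTS, neurotensin, at least 13.3-fold. SCT, secretin, was lower in Peyer by 2.88 with overlapping arrays.

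Junction, keratin and stem cell genes split, with 8 of 22 higher in Peyer, 3 lower and a median of 0.59. KRT20, the keratin of differentiated intestinal epithelium, lay at 4.86, 4.98 and 5.81 in Peyer. In Liver it was above background only in animal 73, at -0.36, against a median of -7.28. LGALS4, an intestinal galectin, EPCAM, a surface protein of epithelia that hepatocytes lack, and KRT19 were higher by 8.53, 7.05 and 6.50. KRT18, the keratin of hepatocytes, CLDN1 and TJP1 were lower by 3.60, 3.74 and 1.21. TJP1 was at -0.82 and not called without animal 69. C19ORF77, under the file's own name, was higher by 10.06 and LGALS3, another galectin, by 7.59, with both above background on 12 of 12 arrays.

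Of 18 smooth muscle and pacemaker genes 13 were higher in Peyer and 1 lower, with a median of 1.84 (1.73 with bounds). ACTG2, enteric smooth muscle actin, lay at 4.07, 6.39 and 7.99 in Peyer and at -1.12, -0.55 and 1.20 in Liver and differed by 6.19, with its other probe at 1.75. CNN1, calponin, differed by 5.13 and MYH11, smooth muscle myosin, was at least 9.53-fold higher. CALD1, caldesmon, was lower in Peyer by 2.26. The mean level of the list ran from 0.64 in animal 70 to 3.53 in animal 75 over the Peyer arrays and from -0.12 to 0.41 over Liver. Of 11 tested enteric neuron and glia genes 5 were higher, led by NCAM1 (at least 7.37-fold by its reported probe), UCHL1 (3.54) and STMN2 (3.14), and 1 was lower. The other probe of NCAM1 gave 0.84 and was not called, and the 13 probes of STMN2 ran from 0.90 to 8.18. The median was 0.68.

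Extracellular matrix genes went both ways, 6 of 26 higher and 6 lower, with a median of 0.25. These counts lie close to the shares over all genes tested, 19.2% higher and 21.1% lower. TNC, tenascin C, was higher in Peyer by 4.14. FN1, fibronectin, which hepatocytes also secrete into plasma, and BGN, biglycan, were lower by 3.86 and 3.42.

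Of 20 B cell genes tested, 18 were higher in Peyer and 1, PAX5 (by 1.24), was lower, with a median of 4.46 (4.33 with bounds), or 4.59 without the Peyer array of animal 71. CR2, a complement receptor found on B cells and on follicular dendritic cells, lay at -3.29, 1.31 and 2.04 in Peyer and was not above background on any Liver array, so it was at least 50-fold higher, or at least 86.8-fold without the Peyer array of animal 71. CD79B, the signalling chain of the B cell receptor, was at 0.68, 4.02 and 4.40 in Peyer and at -4.33, -2.22 and -1.85 in Liver, a difference of 6.14 (SE 0.47, adjusted p = 6.2e-11). It was 6.71 without animal 71. MS4A1, which encodes CD20, differed by 5.54, and by 6.13 without that array. In CR2, CD79B and MS4A1 animal 71 had the lowest Peyer value, and it was above every Liver array.

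Of 15 germinal centre genes 9 were higher in Peyer, or 10 without animal 71, and none lower. The median was 1.76, or 2.17 without it. GCSAM, a signalling adaptor of germinal centre B cells, was at least 39.9-fold higher and ELL3 differed by 6.10. BCL6, the master repressor of the germinal centre, lay between 1.98 and 4.21 in Peyer and between 2.18 and 3.54 in Liver. Its difference of 0.99 (adjusted p = 0.0035) missed the 2-fold limit, and it was 1.33 and called without the Peyer array of animal 71, and 1.07 and called without animal 73.

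**Figure D4:**
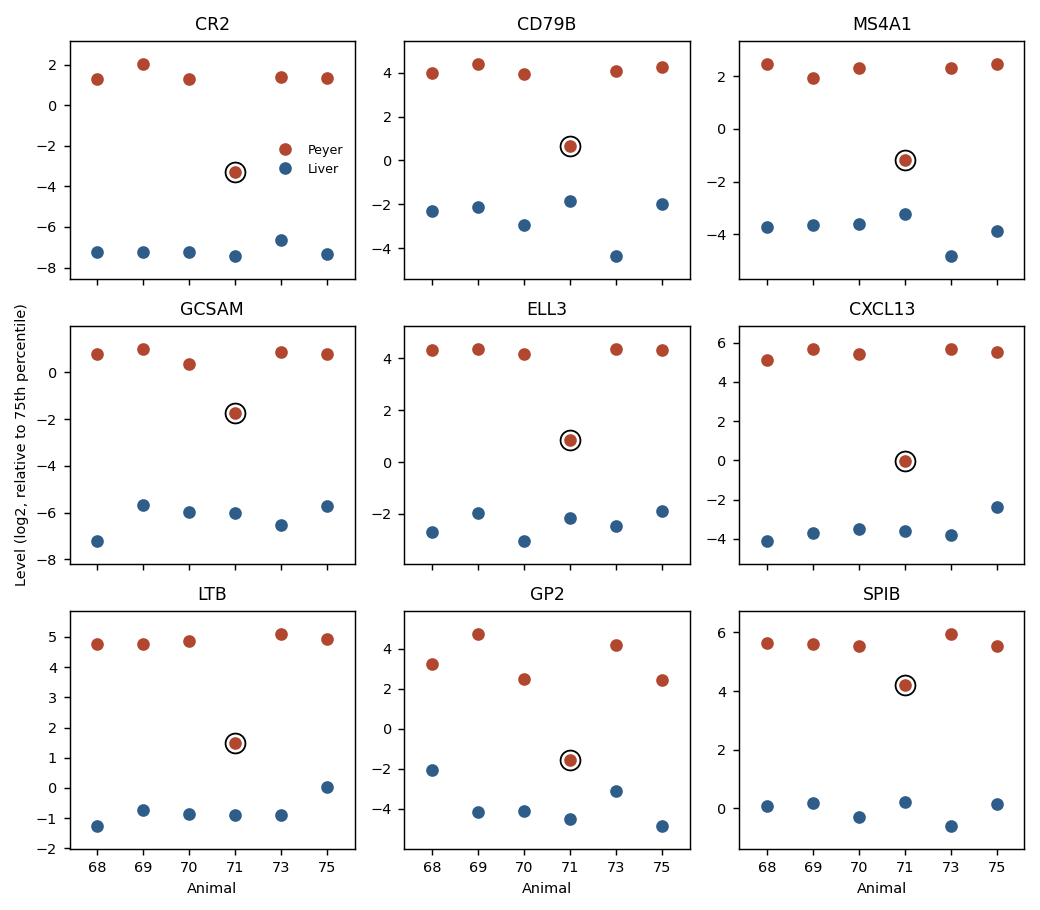
Levels (log2 signal relative to the 75th percentile of the array) of 9 B cell, germinal centre and follicle genes in the 6 animals, on the Peyer and Liver arrays. The Peyer array of animal 71 is ringed and lies below the other 5 Peyer arrays in each of the 9 genes.

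Stromal and chemokine genes of follicles were higher for 12 of 19 and lower for 2, with a median of 1.33, or 1.67 without animal 71. CXCL13 was at -0.06, 5.46 and 5.69 in Peyer and at -4.08, -3.63 and -2.39 in Liver, a difference of 8.05 (SE 0.76), or 8.97 without animal 71. CCL20, the chemokine of the epithelium over follicles, and LTB, lymphotoxin beta, were higher by 5.19 and 5.08. CLU, clusterin, which follicular dendritic cells and M cells make and hepatocytes secrete, lay at 0.03, 3.50 and 4.25 in Peyer and at 6.58, 7.02 and 7.28 in Liver and was lower by 4.01, or by 3.42 without animal 71. TNFRSF11A, the RANK receptor, was lower by 1.54, with -0.99 and no call without animal 69. Of 11 genes of the follicle-associated epithelium and M cells 6 were higher, or 7 without animal 71, and 2 lower, with a median of 2.05. GP2, an uptake receptor of M cells, was at -1.55, 2.87 and 4.75 in Peyer and at -4.84, -4.13 and -2.06 in Liver and higher by 6.38, or by 7.21 without animal 71. SPIB, the factor that M cells and B cells need, was higher by 5.46. C3H2orf40, named in the files by its chromosomal label, was higher by 6.82 and by 7.49 without animal 71.

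Of 13 plasma cell and IgA genes 10 were higher in Peyer and 1, FKBP11 (by 1.13), lower, with a median of 2.55. FKBP11 was at -0.94 and not called without animal 73. CCL25, the chemokine of small intestinal epithelium, lay at 5.64, 6.18 and 6.98 in Peyer and at -3.75, -3.35 and -2.77 in Liver, a difference of 9.48 (SE 0.34). CCR9, its receptor on gut-homing lymphocytes, was higher by 4.63 with 3 of 6 Liver arrays above background. IGHA, the heavy chain of IgA under the file's own name, was higher by 6.78 and IGJ, the chain that joins IgA units, by 4.51. PIGR, which carries IgA across epithelium, was at 6.37, 6.81 and 7.67 in Peyer and at 2.11, 3.06 and 3.52 in Liver. Unlike the follicle genes, IGHA and IGJ on the Peyer array of animal 71, at 7.97 and 4.52, lay within the range of the other 5.

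Of 20 T cell genes 16 were higher in Peyer and 2 lower, with a median of 2.44 (2.24 with bounds). ICOS, the costimulator of follicular helper T cells, was at -0.28, 1.98 and 2.50 in Peyer and at -3.62, -2.25 and -1.77 in Liver, with animal 71 lowest in Peyer, and differed by 4.21. The receptor chains CD3G and CD3E were higher by 3.60 and 3.58 and did not single out animal 71. TBX21, a factor of T helper cells and 1 of the 2 lower genes, was lower in Peyer by 1.23 with its other probe at 0.89. TBX21 was at -0.91 and not called without animal 69. Of 15 NK and cytotoxic genes 6 were higher and 1 lower, with a median of 0.68 (0.24 with bounds). GZMA and GZMB, granzymes, and XCL1, a chemokine of killer lymphocytes, were higher by 6.34, 3.43 and 3.34. NCR1, the receptor NKp46, was lower by 2.23.

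Of 14 genes of MHC class II presentation 12 were higher in Peyer, or 13 without animal 71, and none lower, with a median of 1.90. SLA-DOB and SLA-DOA, the class II chaperone chains of B cells, were higher by 3.96 and 3.03 and CD86, a costimulator, by 2.53. Of 15 genes of MHC class I and peptide loading 6 were higher and none lower, with a median of 0.80, led by PSMB8 (2.44), PSMB9 (2.20) and TAP1 (2.08).

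Cytokines and receptors went both ways, 12 of 27 higher and 8 lower, with a median of 0.83. IL2RG, the common gamma chain, was higher by 3.50. IL1R1, the interleukin 1 receptor, was at 0.11, 0.32 and 0.85 in Liver and lower in Peyer by 6.27 (4 of 6 arrays above background), and IL2RA was lower by 3.56. Toll-like receptors and other sensors had 2 of 21 higher and 5 lower, or 4 higher without animal 71, with a median of -0.24. Over all genes tested 19.2% were higher and 21.1% lower. CD14 and LBP, which hepatocytes release to bind lipopolysaccharide, were lower by 6.12 and 4.46, and NOD1 was at least 10-fold lower. TLR10, a receptor of B cells, was higher by 3.95. Interferon response genes stayed near the median of all genes, with 6 of 27 higher, 1 lower and a median of 0.12. GBP2, GBP1 and OAS1 were higher by 2.93, 2.57 and 2.29 and IFI44 lower by 1.21.

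Of 25 genes of DNA replication and mitosis 21 were higher in Peyer and 2 lower, with a median of 2.50, or 2.76 without animal 71. CCNB1, mitotic cyclin B1, was at 0.83, 2.77 and 3.01 in Peyer and at -1.66, -1.02 and 0.82 in Liver and higher by 3.21. BUB1, a spindle checkpoint kinase, and TPX2, a spindle assembly factor, were higher by 3.15 and 3.04. Animal 71 was the lowest Peyer array for each of the 3 genes. CDC6, which licenses replication origins, was lower by 1.16, with -0.90 and no call without animal 69. KIF11, a spindle motor, was lower by 1.24 by its reported probe and higher by 2.48 by the other.

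**Figure D5:**
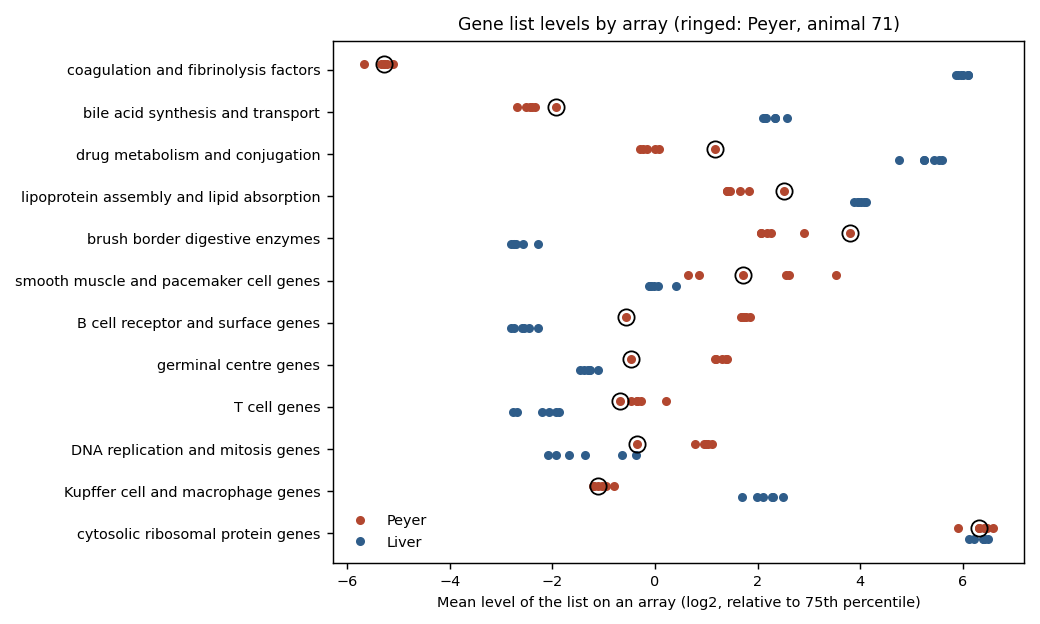
Mean level (log2 signal relative to the 75th percentile of the array) of the tested genes of 12 lists on each of the 6 Peyer and 6 Liver arrays. The Peyer array of animal 71 is ringed. It lies at -0.56 for B cell genes against 1.68 to 1.85 on the other Peyer arrays, and at 3.79 for brush border genes against 2.06 to 2.90.

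Genes of macrophages and of sinusoids were mostly lower in Peyer. The macrophage list is not particular to Liver, since its mean level was 2.14 in Liver, 2.31 in Spleen and -1.05 in Peyer. Of 13 Kupffer cell and macrophage genes 10 were lower in Peyer and none higher, with a median of -3.06 (-2.55 with bounds), or 0.46 in the authors' deposited values. CD5L, a secreted macrophage protein, was at 6.99, 7.29 and 7.66 in Liver and at -2.06, -0.35 and 0.10 in Peyer and differed by -7.91. CLEC4F, a lectin of Kupffer cells, was at least 56.6-fold lower and VSIG4, a complement receptor of resident macrophages, lower by 4.51, with its 7 probes from -4.61 to -0.43. Of 13 genes of sinusoidal endothelium and stellate cells 8 were lower and 2 higher, or 1 higher without animal 71, with a median of -1.70. CLEC4G, a lectin of sinusoidal endothelium, was at 5.41, 6.02 and 6.28 in Liver and at -3.47, 0.72 and 2.04 in Peyer, with animal 71 lowest, and lower by 5.78, or by 5.06 without that array. COLEC11, a collectin, and RELN, reelin of stellate cells, were lower by 5.40 and 4.12. LRAT, which stores retinol as esters in stellate cells and enterocytes, was higher by 1.02, and by 0.72 and not called without animal 71.

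Of 13 genes of blood and lymphatic endothelium 10 were lower in Peyer and 2 higher, with a median of -1.66. CLDN5, a junction protein, was lower by 2.57. PDPN, a marker of lymphatic endothelium and lymphoid stroma, was higher by 4.29 and VWF, von Willebrand factor, by 1.92.

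Neutrophil genes were lower for 5 of 11 and higher for 2, with a median of -0.71. S100A8, S100A12 and S100A9, calgranulins, were lower in Peyer by 3.95, 3.27 and 2.90, and MMP9, a gelatinase, higher by 1.72. Of 10 erythroid genes 6 were lower and none higher, with a median of -1.49, or 0.41 in the authors' deposited values. HBB, beta globin, was at 0.81, 3.23 and 4.31 in Liver and at -3.28, -2.63 and -1.18 in Peyer and lower by 5.50, and AHSP, the alpha haemoglobin chaperone, was lower by 4.70. Platelet genes (2 of 6 higher, 1 lower, median -0.22) were represented by TUBB1 at 1.31. Mast cell and eosinophil genes (1 of 4 higher, 1 lower, median 0.70) were represented by HDC, histidine decarboxylase, at 2.03 and GATA2 at -3.78. Both lists are small, and the shares over all genes tested were 19.2% higher and 21.1% lower.

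Lists for adipose tissue and pancreas, which could adhere to a sample, and for bile ducts, a part of the liver, were also read. Of 10 adipocyte genes 3 were higher in Peyer and 2 lower, with a median of 0.69. The shares over all genes tested were 19.2% higher and 21.1% lower. LPL, lipoprotein lipase, was at least 17.5-fold higher by its reported probe and LIPE, hormone-sensitive lipase, higher by 2.82, with its 4 probes from -1.12 to 2.82. Of 9 bile duct genes 7 were higher in Peyer and 1, KRT7 (by 1.52), lower, with a median of 1.52, or -0.26 in the authors' deposited values. The mean level of the bile duct list was 0.54 in Peyer, -1.56 in Liver and 1.24 in Jejunum, so the list is not particular to bile ducts. TFF2, a trefoil peptide, and AQP1, a water channel, were higher by 4.55 and 2.99. Of 6 exocrine pancreas genes 4 were higher and none lower, with a median of 1.77. Over probes above background on all 12 arrays the median was -0.26. Their leading gene SPINK1, a trypsin inhibitor that gut mucosa also makes, was at least 4530-fold higher. CPA1, carboxypeptidase A1 of the acinar cell, lay between -3.37 and -1.30 in Peyer and was not called (-0.86), but was at -1.12 and called without the Peyer array of animal 71.

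Genes often taken as constant were mostly close. Of 18 reference genes 4 were lower in Peyer and 1 higher, with a median of -0.13. For these and the next lists, the shares over all genes tested were 21.1% lower and 19.2% higher. HPRT1 and TFRC were lower by 2.70 and 2.53 and YWHAZ higher by 2.09. Of 28 respiratory chain genes 5 were lower and 1, CYCS, higher by 1.45, with a median of -0.25. The 14 probes of CYCS ran from -0.67 to 2.29. COX7A1, a muscle-type subunit of cytochrome oxidase, was lower by 2.84. Of 32 cytosolic ribosomal protein genes 2 were lower, RPS19 by 1.34 and RPS2 by 1.30, and none higher, with a median of -0.03. RPS2 was at -0.89 and not called without animal 69. RPS19 had a second probe at 0.88. Of 24 proteasome and folding genes 1 was lower, CANX by 1.08, with a median of -0.38. Of 14 immediate early and heat shock genes 4 were higher, among them MYC by 2.01 and HSPH1 by 1.66, and 1, EGR1, lower by 1.62, with a median of 0.45. EGR1 was at -0.93 and not called without animal 69.

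The 6 genes with the highest mean level over the 12 arrays among those with a difference under 0.5 in size were RPLP1, RPS3, RPLP2, EEF1A1, RPS20 and RPL6. Their differences ran from -0.47 (RPS3 and RPL6) to -0.07 (RPLP2 and RPS20), and their arrays overlapped between the tissues. All 6 turned positive under quantile normalization between arrays, where they ran from 0.58 to 1.08, so no direction is given for them. Under that scaling the median difference over all genes was 0.105 in place of -0.04.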

How the data were processed

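RNA of 24 samples was labelled with Cy3 and hybridised to 1-colour Agilent pig arrays. The signals were made with Feature Extraction 10.10.1.1, per the submitters' processing notes. The deposited scanner files hold background-corrected intensity per spot, and the authors also deposited a table of normalized log2 values. That table is centred by slide set, and Liver shares its slides with Spleen and Peyer with Jejunum. A Peyer minus Liver difference in it is therefore not the same measure as in the scanner signals. Its columns have a median of 8.24, and its differences correlated with those of the scanner signals at r = 0.696 over 42342 probes.

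Intensities were taken to log2, minus the 75th percentile of each array. A probe was kept if all 6 arrays of some tissue had it well above background, with no outlier flag (42650 probes). Differences were fitted with limma 3.58.1 in R 4.3.3 over the 24 arrays by tissue, with Benjamini-Hochberg adjustment over all probes, and a gene took its probe with the highest mean. Calls needed an adjusted p under 0.05 and a 2-fold difference. The fit was tested on simulated data. Per-sample precision is limited by the number of arrays. Same-numbered samples come from the same animal. Their deviations from the tissue means correlated at 0.132 on average (0.063 to 0.218, 4 of 6 pairs over 0.1), against -0.026 for 30 pairs of different animals.

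The tissues and the 49 gene lists were chosen with earlier results of these data known. Named genes were the 12 highest and 12 lowest called genes above background on 12 arrays, the 8 highest lower bounds each way, up to 3 members of each list by size and up to 3 called against its majority, 6 high genes with small differences, and members of 3 lists. Cell type markers were also named. ACE, LTA, PIGR, CPT1A, SAA1, SAA2 and SAA3 were chosen after their values were seen. Alternatives covered scaling, background, filter, probe choice, blocks, weights, and each animal left out. Some list members are counted but not reported here by name.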

Additional observations from a re-analysis of the deposited data

Results flagged for a closer look

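In each tissue the highest or lowest of the 6 arrays was compared with the nearest of the other 5, and the gap was divided by the whole range. A ratio above Dixon's critical value for 6 samples singled out 1 array in 113 of 588 groups of values, where a group is a gene or list in 1 tissue. Chance alone singles out about 1 in 20 groups, and over all 11038 genes tested 1 array was singled out in 20.9% in Peyer and 8.66% in Liver. Over all genes the Peyer arrays of animals 71 and 69 were singled out in 13.3% and 6.29%. In 10 of the 113 groups the gene was above background on no array of the tissue by its reported probe, so the values show background signal and no level. These were PROC in Peyer and, in Liver, REG4, MEP1B, SI, SLC15A1, FABP2, VDR, MEP1A, GCG and CR2. Of all 113 groups, 62 singled out the Peyer array of animal 71. Low and high are meant against the other 5 arrays of the tissue, and values are levels relative to the 75th percentile of the array (log2).

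Low on the Peyer array of animal 69 were acute phase proteins (-2.70), platelet genes (-1.74) and reference genes (4.60). Low on the Peyer array of animal 71 were B cell receptor and surface genes (-0.56), germinal centre genes (-0.46), follicle stroma and lymphoid chemokines (-0.02), follicle-associated epithelium and M cell genes (0.58), antigen presentation by MHC class II (1.64) and DNA replication and mitosis genes (-0.36). High on the Peyer array of animal 71 were urea cycle and amino acid breakdown (-2.04), drug metabolism and conjugation (1.16), iron, haem and metal handling (1.72), endoderm and epithelial transcription factors (-0.51), sugar, peptide and ion absorption (2.02), enteroendocrine genes (-0.36), epithelial junctions, keratins and stem cell genes (2.69), adipocyte genes (-1.03) and bile duct genes (1.37). High on the Liver array of animal 68 were smooth muscle and pacemaker cell genes (0.41). High on the Liver array of animal 75 were follicle stroma and lymphoid chemokines (0.07).

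Low on the Peyer array of animal 68 was PROC (-8.55). High on the Peyer array of animal 68 were FGG (-4.70), MBL2 (-3.60) and SERPINF1 (2.25). Low on the Peyer array of animal 69 were A1BG (-3.22), HSD3B7 (-6.03), CEBPB (-7.17), PDX1 (-5.84), TJP1 (-4.27), TNFRSF11A (-2.35), IGJ (2.13), TBX21 (-0.39), KIF11 (-5.01), CDC6 (-1.94), RPS19 (-1.73), RPS2 (-3.75) and EGR1 (-4.84). High on the Peyer array of animal 70 was CD3G (2.18). Low on the Peyer array of animal 71 were CXCL13 (-0.06), C3H2orf40 (1.38), FABP6 (2.51), APOE (3.86), CR2 (-3.29), CD79B (0.68), GCSAM (-1.73), ELL3 (0.85), LTB (1.47), CLU (0.03), GP2 (-1.55), SPIB (4.20), ICOS (-0.28) and SLA-DOA (0.03). The low values there also included CD86 (2.45), PSMB8 (2.34), CD14 (-2.31), TLR10 (-2.30), CCNB1 (0.83), BUB1 (-1.40), TPX2 (1.35), LIPE (1.02), HPRT1 (0.68), BCL6 (1.98) and MS4A1 (-1.19). High on the Peyer array of animal 71 were LGALS4 (8.23), SLC5A1 (7.01), EPCAM (6.21), SLC34A3 (6.66), MME (5.51), SLC51B (5.60), ABCC2 (2.48), FABP2 (7.76), APOA5 (-0.76), LIPC (-2.32), SCARB1 (5.96), ABCG8 (-1.79), CEBPA (5.08) and GATA6 (1.0). The high values there also included GATA5 (0.16), ISX (-3.51), SLC2A2 (1.53), SST (4.56), KRT20 (5.81), GZMB (5.41), LRAT (0.09) and CANX (4.89). Low on the Liver array of animal 68 were MT1A (7.78) and RPS19 (1.14). Low on the Liver array of animal 70 was NR0B2 (-1.13). High on the Liver array of animal 70 was GATA4 (-1.35). Low on the Liver array of animal 71 was APOM (5.56). Low on the Liver array of animal 73 was SLA-DOA (-1.78). High on the Liver array of animal 73 were REG4 (-6.33), MEP1B (-6.59), SI (-6.05), SLC15A1 (-6.35), C8A (7.43), FABP2 (-6.38), APOB (7.75), VDR (-6.50), TCF7L2 (2.43), MEP1A (-5.54), GCG (-6.65), KRT20 (-0.36), CR2 (-6.63) and VSIG4 (3.65). Low on the Liver array of animal 75 were GATA2 (2.07) and RPS3 (8.31). High on the Liver array of animal 75 were CXCL13 (-2.39), SERPINF1 (7.27), HNF4G (-2.58), SAA1 (8.81), SAA2 (9.78) and SAA3 (9.84).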

How the results depend on the processing

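Of 245 named genes, all kept their direction and their side of the threshold with the 12 arrays fitted alone, with another 75th percentile, without the filter, and with slide as a random block. Apart from the 75th percentile, these settings leave each gene's difference as it is, so only its adjusted p could change. A random slide block cannot separate slide set from tissue. The counts called stayed within 1.5 times of 4444, 2118 and 2326 except in 2 settings. Testing against a 2-fold change gave 2780 called (1353 higher, 1427 lower). The authors' deposited values gave 2171 of 11003 genes (1129 higher, 1042 lower). Leaving out 1 animal gave 4336 to 4623 called, 2045 to 2197 higher and 2197 to 2426 lower, and leaving out only the Peyer array of animal 71 gave 4646, 2201 and 2445. Of the 245 named genes, 8 lost their call and 2 changed sign without animal 69. Without animal 71, 1 lost its call and 4 gained one. The similarity of 0.776 was 0.840 over probes above background on all 24 arrays and 0.798 by rank. Normexp background correction moved the share of called genes that were higher in Peyer from 47.66% to 36.91%, with 1516 higher and 2591 lower. Median centring and quantile normalization moved that share the other way, to 55.08% and 54.59%. Median centring, quantile normalization and normexp shifted the median of all genes from -0.04 to 0.115, 0.105 and -0.23. Leaving out slide 6 lost the calls of NR5A2 (-1.09), GATA4 (-0.97), TCF7L2 (-0.94) and CANX (-0.99) and added DGAT1 (1.14).

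The replicate block, which pairs the samples of an animal, gave 4426 called on 12 arrays (2105 higher, 2321 lower) and 4454 on 24 arrays (2124 higher, 2330 lower). It leaves each difference as it was, so only the adjusted p could change, and it changed the call of none of the 245 genes.

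The following differences changed sign, and the cause was not tested. By the median over the probes of a gene they were APCS (-2.39), PDX1 (0.19), MUC13 (4.20), KIF11 (0.62), RPLP1 (0.21), RPS20 (0.06), RPL6 (0.53), ACE (5.23), CHGA (5.66) and LTA (3.19). By quantile normalization they were APOA1 (0.24), MTTP (0.12), FABP1 (0.28), RPLP1 (0.86), RPS3 (0.64), RPLP2 (1.08), EEF1A1 (0.84), RPS20 (1.06), RPL6 (0.58), ACE (0.28) and CHGA (0.03). By normexp they were ISX (-0.59), RPLP2 (0.07) and RPS20 (0.06), and by median centring RPLP2 (0.09) and RPS20 (0.09). Leaving out 1 animal gave RPLP2 from -0.14 to 0.05 and RPS20 from -0.16 to 0.04, both positive without animal 69, and array weights gave RPS20 at 0.04. The exocrine pancreas list had a median of -0.26 over probes above background on all 12 arrays. The authors' deposited values are centred by slide set, so their differences are not the same measure. In them 55 of the 245 genes changed sign and 53 others lost their call. These were C19ORF77 (-0.19), LGALS4 (-0.55), GUCA2A (-0.58), SLC5A1 (-0.77), EPCAM (-1.24), DMBT1 (-1.20), SPINK1 (-0.12), MEP1B (-0.72), SI (-0.71), SLC15A1 (-0.57), APCS (-0.54), SLC51B (-2.76) and PRLR (-1.30). Further ones were SLC39A4 (-0.53), FABP2 (-0.38), APOA4 (-2.51), DGAT1 (-2.0), KLF5 (-0.37), VDR (-0.84), HNF4G (-1.20), GATA5 (-0.75), ISX (-0.22), MEP1A (-0.73), CLCA1 (-0.22) and MUC13 (0.65). Others were SST (-0.66), GCG (-1.03), NTS (-0.86), KRT20 (-0.49), BGN (0.62), CLU (0.35), NCR1 (0.50), OAS1 (-0.31), CD5L (0.70), CLEC4G (0.83), LRAT (-1.60), S100A8 (0.92) and S100A12 (0.74). The last were S100A9 (0.77), HBB (0.74), AHSP (1.37), KRT19 (-1.11), TFF2 (-0.26), HPRT1 (0.14), RPLP1 (0.59), RPS3 (0.55), RPLP2 (0.73), EEF1A1 (0.61), RPS20 (0.64), RPL6 (0.54), ANPEP (-1.47), CHGA (0.46), CPT1A (0.33), LCT (-0.15) and PIGR (-2.23). So did the medians of brush border digestive enzymes (-0.72), sugar, peptide and ion absorption (-0.78), enteroendocrine genes (-0.35), Kupffer cell and macrophage genes (0.46), erythroid genes (0.41) and bile duct genes (-0.26).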
